A study of Mus musculus with 7 samples.

Results

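Phase II conjugation enzyme genes were taken as every protein-coding mouse gene of GRCm38 (mm10) whose symbol starts with Ugt1, Ugt2, Ugt3, Gsta, Gstm, Gstp, Gstt or Sult. These were 60 of the 21887 protein-coding genes of the gene table used, and all 60 were among the 21535 genes for which a strand, and so a start, was known. There were 9 Ugt1, 10 Ugt2, 2 Ugt3, 4 Gsta, 7 Gstm, 3 Gstp, 4 Gstt and 21 Sult genes. Wild type male C57BL/6 mice, 3 months old, gave the livers for chromatin immunoprecipitation and sequencing (ChIP-seq) of RARα and RARβ, which are receptors of retinoic acid (RA), and of the retinoid X receptor RXRα. One group of mice ate a normal diet (control) and the other an RA diet, over 1 day according to the labels, whereas the study's methods give a longer treatment, so the duration is not settled here. Each receptor and diet had 1 library with 1 peak list, which made 6 lists, and an input library of chromatin was not analysed here. With 1 library per group no difference has a replicate check, no test was possible, and the intervals printed are Wilson 95% intervals that cover counting error only.

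In phase II metabolism a polar group is joined to a drug, hormone, bile acid or bilirubin so that it can leave the cell. UDP-glucuronosyltransferases (Ugt genes) join a sugar, glutathione S-transferases (Gst genes) join glutathione and sulfotransferases (Sult genes) join a sulfonate. RXRα is the common partner of the RARs and of several receptors that are known to control such genes in liver, among them PXR and CAR for xenobiotics, FXR for bile acids and PPARα for fatty acids. Partners of RXRα read repeats of a short half-site, of which AGGTCA is the common form.

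RARα peaks were called within 10 kb of the start at all 7 Ugt2b genes in both RARα libraries (61.9% and 63.3% of all genes under control and RA). Of these genes, Ugt2b34 held no half-site searched, Ugt2b1 held only GGTTCA, 172 bases upstream, and Ugt2b35 held AGGTCA 215 bases upstream. RARα was thus also called at Ugt2b genes without AGGTCA close to the start. Whether a half-site goes with the RARα peaks was not tested. The 4 Ugt2b sequences shown first come from the remaining Ugt2b genes and carry the same half-site, AGGTCA, close to the start. Each is the 100 bases upstream of the RefSeq start (GRCm38.p6), 5′ to 3′ on the strand of the gene, with half-sites of either strand in capitals. They come from chr5:87140341-87140440, chr5:87092556-87092655, chr5:87254789-87254888 and chr5:87424204-87424303, all on the minus strand.
Ugt2b5: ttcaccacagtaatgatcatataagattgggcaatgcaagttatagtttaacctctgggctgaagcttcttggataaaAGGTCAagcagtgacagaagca
Ugt2b36: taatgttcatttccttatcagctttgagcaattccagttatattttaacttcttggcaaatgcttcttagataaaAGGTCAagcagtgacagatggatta
Ugt2b37: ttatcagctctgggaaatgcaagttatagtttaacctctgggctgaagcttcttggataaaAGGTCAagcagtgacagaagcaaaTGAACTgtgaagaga
Ugt2b38: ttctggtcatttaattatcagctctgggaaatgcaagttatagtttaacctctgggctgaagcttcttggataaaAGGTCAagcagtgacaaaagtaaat

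The AGGTCA lay 22 bases upstream of the start in Ugt2b5, 25 in Ugt2b36, 39 in Ugt2b37 and 25 in Ugt2b38, counted to its first base. It sat in a run of 22 letters, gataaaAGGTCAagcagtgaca, that the 4 promoters shared and no other of the 17492 promoters held. Ugt2b5, Ugt2b37 and Ugt2b38 shared a run of 62 letters around it. The genes are near copies of one another, and aligned over 250 bases the promoters of Ugt2b37 and Ugt2b38 were 84.8% identical.

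The Sult2a sequences are shown because near copies differed in their peaks. Sult2a3 and Sult2a5 had peaks in the RXRα lists only, Sult2a4 also had a RARβ peak under RA, and Sult2a6 had no peak in any list. They are the bases upstream of the start at chr7:14123049-14123298, chr7:13623717-13623966, chr7:13989592-13989838 and chr7:14254871-14255120, on the plus strand for Sult2a5 and on the minus strand for the others.
Sult2a3: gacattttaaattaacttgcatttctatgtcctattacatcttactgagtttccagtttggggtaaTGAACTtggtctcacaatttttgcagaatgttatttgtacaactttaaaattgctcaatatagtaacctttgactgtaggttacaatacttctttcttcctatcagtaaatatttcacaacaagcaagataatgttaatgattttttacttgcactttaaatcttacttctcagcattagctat
Sult2a5: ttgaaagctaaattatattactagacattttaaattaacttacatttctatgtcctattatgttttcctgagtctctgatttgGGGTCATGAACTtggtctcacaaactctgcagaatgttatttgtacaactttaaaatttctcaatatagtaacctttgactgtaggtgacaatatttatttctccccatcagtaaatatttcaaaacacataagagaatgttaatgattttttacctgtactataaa
Sult2a4: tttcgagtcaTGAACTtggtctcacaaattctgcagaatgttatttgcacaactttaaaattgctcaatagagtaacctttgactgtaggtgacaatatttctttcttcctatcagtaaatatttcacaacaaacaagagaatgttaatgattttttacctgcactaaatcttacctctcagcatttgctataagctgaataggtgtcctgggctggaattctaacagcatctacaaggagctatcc
Sult2a6: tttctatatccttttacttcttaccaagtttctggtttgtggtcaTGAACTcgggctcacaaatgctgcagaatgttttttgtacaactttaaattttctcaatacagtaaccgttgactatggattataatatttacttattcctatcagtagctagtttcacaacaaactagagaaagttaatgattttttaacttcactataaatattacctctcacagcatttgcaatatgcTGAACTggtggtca

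Each held AGTTCA on the reverse strand (TGAACT as printed), with its first printed base 184, 161, 240 and 205 bases upstream of the RefSeq start, in the order of the printed lines, and Sult2a6 held it once more 14 bases upstream. In Sult2a5 it followed GGGTCA directly, which gave GGGTCATGAACT, an inverted repeat of half-sites without a spacer. Such an arrangement is a known binding element of xenobiotic and bile acid receptors in Sult2a promoters, and it was searched for after these sequences had been seen. It was found in 1 of the 52 members with a RefSeq promoter (1.92%) and in 12 of all 17492 promoters (0.0686%). The search allowed no mismatch. Directly before the TGAACT farther from the start, Sult2a3 held gggtaa, Sult2a4 gagtca and Sult2a6 tggtca, each 1 letter away from GGGTCA. The near copies, with Sult2a6 among them, thus held almost the same letters. Sult2a6, the gene without a peak, shared 69.7% of aligned promoter bases with Sult2a3 and 62.8% with Sult2a4, and all 4 promoters shared the run gttaatgatttttta.

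A further 3 sequences are shown for the position of their peaks or for their motif. Gstm1 at chr3:108017974-108018223 and Sult1d1 at chr5:87569007-87569256, both on the minus strand, belong to genes that every list called close to the start, at under 1 kb. Gsta3 at chr1:21240335-21240564 on the plus strand held the core of the antioxidant response element, TGACNNNGC, through which Nrf2 is known to act on Gst genes.
Gstm1: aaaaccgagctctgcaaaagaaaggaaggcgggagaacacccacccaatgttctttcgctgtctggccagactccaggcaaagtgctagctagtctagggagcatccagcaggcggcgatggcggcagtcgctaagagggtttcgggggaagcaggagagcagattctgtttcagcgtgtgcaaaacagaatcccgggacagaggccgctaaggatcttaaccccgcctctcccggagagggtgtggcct
Sult1d1: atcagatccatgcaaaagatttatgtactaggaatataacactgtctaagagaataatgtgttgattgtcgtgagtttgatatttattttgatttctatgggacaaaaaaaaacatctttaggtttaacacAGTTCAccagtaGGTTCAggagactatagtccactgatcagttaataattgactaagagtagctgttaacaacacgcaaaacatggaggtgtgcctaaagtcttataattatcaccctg
Gsta3: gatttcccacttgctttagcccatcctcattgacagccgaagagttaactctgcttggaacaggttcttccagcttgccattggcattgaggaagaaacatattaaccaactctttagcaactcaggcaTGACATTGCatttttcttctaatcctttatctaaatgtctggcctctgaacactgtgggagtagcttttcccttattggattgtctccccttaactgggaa

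Gstm1 held none of the letters searched, Sult1d1 held AGTTCA and GGTTCA, and Gsta3 held TGACATTGC. Over the members, 25 of 52 promoters (48.1%) held at least 1 of the 4 half-sites searched, on either strand, against 36.3% of all promoters. The half-site AGGTCA was in 9 members (17.3%, against 12.5% of all promoters), AGTTCA in 10 (19.2% against 10.9%), GGGTCA in 6 (11.5% against 11.3%) and GGTTCA in 7 (13.5% against 8.19%). Near copies count separately in these shares. The AGGTCA members include Ugt2b5, Ugt2b36, Ugt2b37 and Ugt2b38, which hold it in the same printed run. Those with AGTTCA include Sult2a3, Sult2a4, Sult2a5 and Sult2a6. The promoters are thus not independent of one another. No member had 2 half-sites as a direct repeat with a spacer of 1 to 5 bases, which 0.337% of all promoters had. TGACNNNGC was in Gsta3 and Gstm5, 3.85% of the members, against 10.5% of all promoters. The members' promoters were poor in GC, with a median of 42.6% against 55.2% over all promoters, and only 4 (7.69%) had an observed to expected CpG ratio of at least 0.6, against 45.2%. A match describes letters in a window and is not a binding site.

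The lists held 35521 peaks for RARα under control and 44296 under RA, 14968 and 29467 for RARβ, and 61128 and 59624 for RXRα. The deposited score of a peak was read as −10 times the log10 of its p-value, the usual scale of its caller MACS, the lowest in any list was 50, and scores were not normalised between libraries. Read totals of the 6 libraries were not used here, so the depth behind a list is unknown, and list length moves with depth. Among genes that mark liver cell types, 3 to 5 of 5 hepatocyte genes had a peak within 10 kb, depending on the list. For Kupffer cell genes it was 0 or 1 of 4 and for stellate cell genes 0 to 2 of 4. Sinusoidal endothelial cell genes had 0 to 3 of 3 and bile duct cell genes 0 or 1 of 4. Over all genes the share was 44.1% to 63.3%. A peak is not expression, so the labelled tissue could not be checked by RNA.

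RXRα peaks were the rule at phase II genes. A gene was counted as called when the midpoint of a peak lay within 10 kb of its outermost start. RXRα was called at 56 of the 60 genes under control (93.3%, 84.1 to 97.4) and at 55 under RA (91.7%, 81.9 to 96.4), against 61.3% and 61.7% of all protein-coding genes. RARα was called at 41 genes under control (68.3%, 55.8 to 78.7) and 47 under RA (78.3%, 66.4 to 86.9), against 61.9% and 63.3%. RARβ was called at 26 genes under control (43.3%, 31.6 to 55.9) and 48 under RA (80%, 68.2 to 88.2), against 44.1% and 54.7%. The RARα interval under control and the RARβ interval under control held the share of all genes, and the other 4 intervals lay above it. With the 14968 highest-scoring peaks kept in each list, RARα was called at 24 genes under control (40%) and 27 under RA (45%), against 47.1% and 43.2% of all genes, RARβ under RA at 30 (50%, against 40.7%), and RXRα at 40 and 38 (66.7% and 63.3%, against 20.6% and 21.4%). The 60 genes lie in clusters on 11 chromosomes and neighbours share peaks, so they are not independent of one another.

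**Figure D1:**
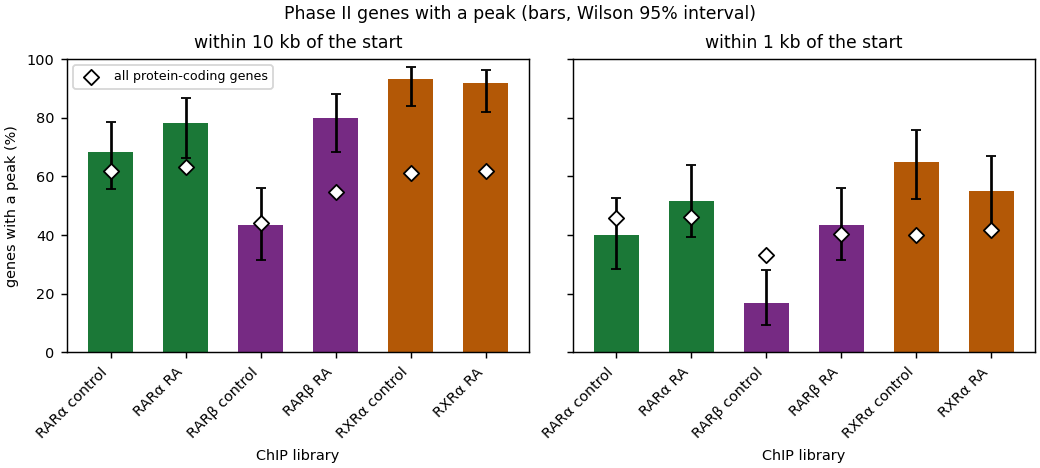
Share of the 60 phase II genes with a peak within 10 kb (left) or 1 kb (right) of the start, in percent, for each receptor and diet. Bars are shares with Wilson 95% intervals and diamonds are the shares of all protein-coding genes. The RXRα bars at 10 kb stand at 93.3% and 91.7%, above the diamonds at 61.3% and 61.7%.

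Fewer of the genes were called close to the start. RXRα had a peak within 1 kb at 39 genes under control and 33 under RA (65% and 55%, against 40.1% and 41.9% of all genes). RARα had one at 24 and 31 genes (40% and 51.7%, against 45.9% and 46.2%), and RARβ at 10 and 26 (16.7% and 43.3%, against 33.1% and 40.3%). Over all genes with a CpG ratio of at least 0.6, the 6 lists called 58.6% to 74.1% within 1 kb, and phase II genes are seldom of that kind. Among the 48 members with a CpG ratio under 0.6, RXRα was called within 1 kb at 62.5% under control and 50% under RA, against 22.1% and 22.5% of all 9579 such genes. RARα was called at 37.5% and 45.8% of them, against 22.9% and 23.3%, and RARβ at 14.6% and 35.4%, against 13.5% and 18.8%.

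The peaks near members were also placed by their distance to the nearest member start. Within 10 kb of the members there were 136 and 139 distinct RXRα peaks under control and RA, 64 and 92 RARα peaks, and 31 and 80 RARβ peaks. Of these, 30.1% and 25.9% of the RXRα peaks lay within 1 kb of a member start. Of all RXRα peaks within 10 kb of any gene, 41.4% and 43.2% lay within 1 kb of the nearest start of any gene. For RARα it was 37.5% and 34.8% against 59.5% and 54.2%, and for RARβ 32.3% and 32.5% against 73.5% and 60.3%. In each of the 6 lists the share over all genes lay above the Wilson interval of the members. The measures differ, since a member peak at the start of another gene, such as Ddt, Cebpzos or Slx1b, counted as far out. This lowers the members' shares, and its size was not tested. The members' RXRα peaks also stood high in their lists, with 17.6% and 17.3% of them among the top 10% by score, against 7.97% and 7.6% of all RXRα peaks near genes. RARα and RARβ peaks stood lower, with 4.69% and 7.61% for RARα against 18.3% and 16.3%, and 0% and 3.75% for RARβ against 12.8% and 13.4%.

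**Figure D2:**
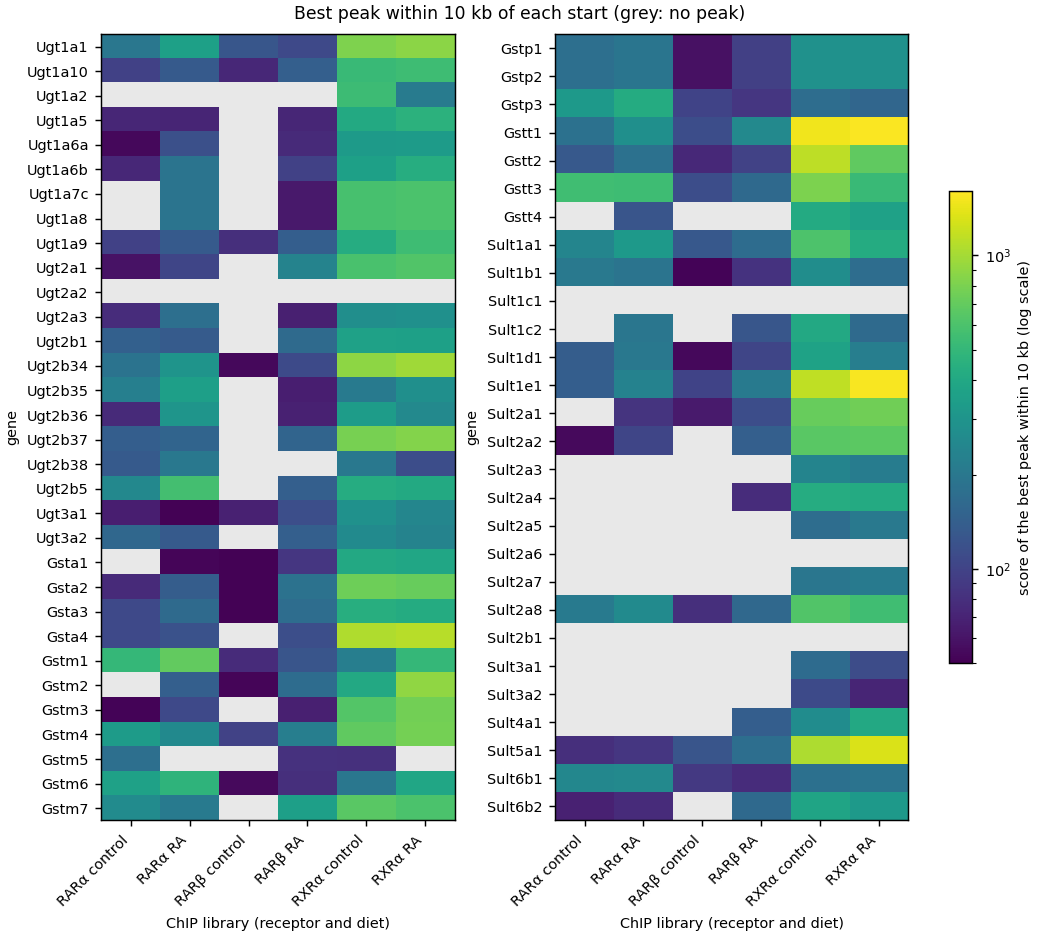
Score of the best peak within 10 kb of each of the 60 genes (rows) in the 6 lists (columns), on a log colour scale, with grey for no peak. The RXRα columns are filled for all but 4 genes under control, whereas the RARβ control column is filled for 26. Scores are not normalised, so colours compare genes within a column.

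The number of receptors called at a gene differed between the diets. Under control, 12 genes had RXRα alone (20%, against 5.68% of all genes), 23 had all 3 receptors (38.3% against 40.6%), and 0 had a RAR without RXRα (7.68% of all genes). Under RA, 6 genes had RXRα alone (10% against 3.78%), 45 had all 3 receptors (75% against 50.5%) and 1 had a RAR without RXRα (1.67% against 7.52%). The 6 genes with RXRα alone under both diets were Ugt1a2, Sult2a3, Sult2a5, Sult2a7, Sult3a1 and Sult3a2. Over both diets, 23 genes were called in all 6 lists (38.3%, against 38.2%). No peak in any list was found at 4 genes (6.67%, against 28.2%), which were Ugt2a2, Sult1c1, Sult2a6 and Sult2b1. For Sult2b1 this holds at the outermost start only. RARα peaks lay 2804 and 2883 bp downstream of its inner RefSeq start under control and RA, at 178 and 332. With every annotated start counted, 3 genes had no peak (27.4% of all genes). Sult2b1 is known as the cholesterol sulfotransferase of skin.

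The diets differed mostly in RARβ. RARβ was called under RA and not under control at 22 genes (36.7%, against 13.1% of all genes), and under control and not under RA at 0 (2.51% of all genes). For RARα 7 genes were called under RA only (11.7%, against 3.87%) and 1 under control only (1.67%, against 2.46%). For RXRα it was 0 and 1 (0% and 1.67%, against 4.12% and 3.72%). The whole RARβ list was 1.97 times as long under RA as under control, and the members' distinct RARβ peaks were 2.58 times as many. With the 14968 highest-scoring peaks kept in each list, RARβ was called under RA only at 11 genes (18.3%, against 5.82% of all genes) and under control only at 7 (11.7%, against 9.19%), so the count of genes with RARβ differed by 4 between diets at equal list length. Outside RARβ, a minimum score of 100 raised the genes with RARα under RA only from 7 to 15 (25%, against 5.58% of all genes).

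The 22 genes with RARβ under RA only were 5 Ugt1a genes, 7 Ugt2 genes, Ugt3a2, Gsta4, 3 Gstm genes and 5 Sult genes. At 16 of them every other list had a peak, so that RARβ under control was the single list without one. Peaks that lay at one place were merged over the lists into 161 regions, of which 49 had RARβ under RA only. All 49 had an RXRα peak in at least 1 diet and 47 had one in both, and 37 had a RARα peak in at least 1 diet. Regions were made at the members only, so these counts have no share over all genes and show no trait of the members. Shares of peaks have one. Of the 80 RARβ peaks under RA, 77 overlapped an RXRα peak under RA by at least 25% of each width (96.2%, 89.5 to 98.7), against 88.2% of all RARβ peaks near genes. Only 25 of the 80 overlapped a RARβ peak under control (31.2%, 22.2 to 42.1), against 55.6%. For RARα, an RXRα peak of the same diet was shared by 54 of 64 under control (84.4%, against 68%) and 69 of 92 under RA (75%, against 68.9%). In the other direction, 41.2% of the members' RXRα peaks under control overlapped a RARα peak of that diet, against 51.9% of all RXRα peaks near genes, and 21.3% a RARβ peak, against 33.7%. Under RA it was 51.1% for RARα, against 59.1%, and 56.1% for RARβ, against 57.6%.

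RARα was called under both diets at 40 genes (66.7%, against 59.4% of all genes), RARβ at 26 (43.3% against 41.6%) and RXRα at 55 (91.7% against 57.6%). At these genes the best RARα peak scored higher under RA at 32 of 40 genes (80%, against 57.2% of all genes). For RARβ it was 23 of 26 (88.5%, against 81.9%) and for RXRα 30 of 55 (54.5%, against 56%). The best peaks under the 2 diets were not always at the same place. Over genes whose best peaks lay within 1 kb of each other, the score was higher under RA at 20 of 27 for RARα (74.1%, against 56.6% of all genes), 8 of 11 for RARβ (72.7%, against 81.7%) and 27 of 40 for RXRα (67.5%, against 56.6%). The median best RARα score over all genes of the set called under both diets was 141 under control and 192 under RA, and that of RXRα was 413 and 414. Scores move with depth as well as with binding, so the diet and the depth of a library cannot be told apart in these values.

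**Figure D3:**
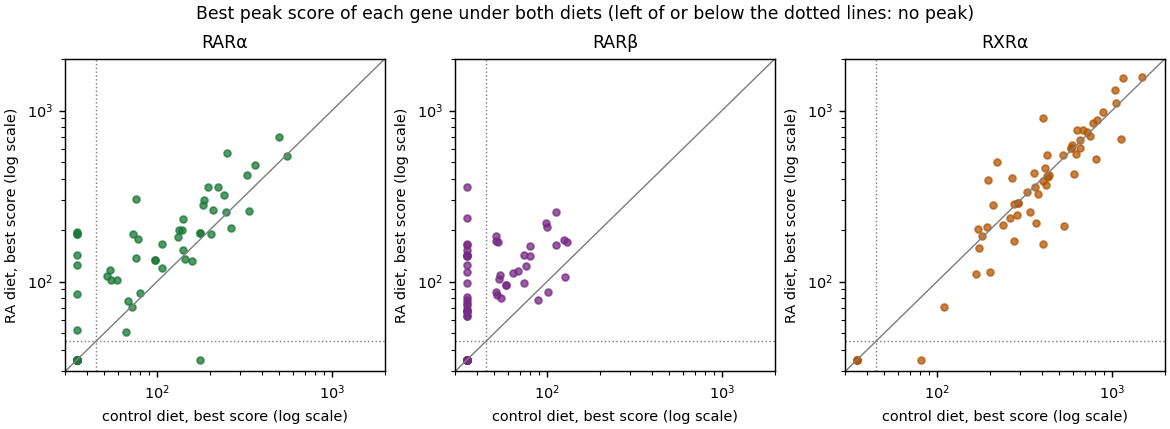
Score of the best peak within 10 kb of each gene under control (horizontal) and under RA (vertical), on log axes, 1 panel per receptor. Points left of or below the dotted lines have no peak under that diet, and the diagonal marks equal scores. Of the RARα genes called under both diets 32 of 40 lie above the diagonal, and 22 RARβ genes lie left of the dotted line with a peak under RA.

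The Ugt1a genes are alternative first exons that are spliced to shared exons, so each has its own start and the enzymes differ in their substrate end. Their 9 starts spread over 157 kb of chromosome 1. RXRα was called at all 9 under both diets, RARα at 6 under control and 8 under RA, and RARβ at 3 and 8. Over all genes the shares were 61.3% and 61.7% for RXRα, 61.9% and 63.3% for RARα, and 44.1% and 54.7% for RARβ. Across the locus there were 20 and 23 RXRα peaks, 11 and 19 RARα peaks, and 5 and 15 RARβ peaks under control and RA. Few had their midpoint at the starts. Within 1 kb RXRα was called at 2 and 1 of the 9 (40.1% and 41.9% of all genes). RARβ was called there at 1 and 1 (33.1% and 40.3%) and RARα at 1 and 5 (45.9% and 46.2%).

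Ugt1a1, which glucuronidates bilirubin, had the midpoint of its best peak 1.12 to 2.82 kb downstream of the start in all 6 lists. The RARα peaks under both diets and the RARβ and RXRα peaks under RA were wide and also covered the start. In these best peaks RXRα scored 820 under control and 879 under RA, RARα 196 and 359, and RARβ 126 and 107. These were the highest RXRα and RARα scores of the locus in both diets, and the RARβ score under control ranked among the 3 highest of any member in that list. Ugt1a8 and Ugt1a7c shared 1 RXRα peak, 1467 bp upstream of Ugt1a8 under control with a score of 585 and 1511 bp upstream under RA with 602. At both genes RARα (190.5, a peak 721 bp upstream of Ugt1a7c) and RARβ (63.1, at the RXRα peak) were called under RA only, so the pair shares these 2 peaks. Ugt1a7c had a further RARα peak within 10 kb under RA, at 90.8, which lay nearer to Ugt1a6b. Ugt1a6a and Ugt1a6b, which act on planar phenols, had their best RXRα peaks 5948 to 6043 bp downstream under both diets, with scores of 329 and 334.5 for Ugt1a6a and 361 and 434 for Ugt1a6b. RARβ was called there under RA only, at 75.2 and 98.0. Ugt1a5 had RXRα scores of 413 and 464 and RARα scores of 72.4 and 71.5, with RARβ under RA only at 72.8. At Ugt1a9 all 6 lists had a peak, and the RXRα peak 6350 bp upstream under RA scored 276 under control and 546 under RA.

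**Figure D4:**
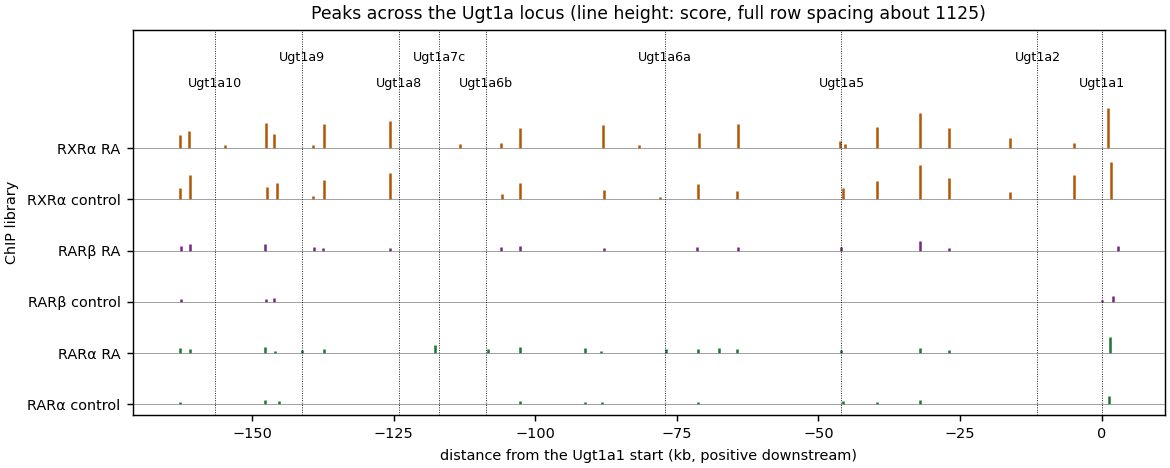
Peaks of the 6 lists across the Ugt1a locus, by distance in kb from the Ugt1a1 start (positive is downstream). Vertical line height is the score, dotted lines mark the 9 starts, and each row is 1 library. RXRα has 20 and 23 peaks under control and RA, mostly between the starts, and the RARβ rows have 5 and 15.

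The Ugt2 enzymes glucuronidate steroids and drugs. All 7 Ugt2b genes had a RARα peak within 1 kb of the start under both diets (45.9% and 46.2% of all genes). RXRα was called within 1 kb at 7 and 6 of them (40.1% and 41.9% of all genes). RARβ differed, with 1 of the 7 called within 10 kb under control and 6 under RA (44.1% and 54.7% of all genes). Ugt2b5 had the highest RARα scores of the group, 252 under control and 567 under RA, from a peak 3070 and 2959 bp upstream, and its RA score was among the 3 highest of the members in that list. Ugt2b36, whose promoter shares the printed run with it, had RARα at 75.5 and 305. Ugt2b35 and Ugt2b34 had RARα at 224 and 356 and at 187 and 299. RARα scored 145 and 135 at Ugt2b1, the one gene of these 5 whose RARα score was not higher under RA, and all but Ugt2b5 had the best RARα peak within 1 kb. RARβ under RA scored 143 at Ugt2b5, 69.1 at Ugt2b36, 66.6 at Ugt2b35, 109 at Ugt2b34 and 166 at Ugt2b1, and under control only Ugt2b34 was called, at 53.7. The highest RXRα scores of the group were at Ugt2b34, 887 and 977, at 4100 and 3926 bp upstream. Ugt2b37 and Ugt2b38, 2 of the genes whose sequences are printed, had RXRα scores of 783 and 846 and, 13 and 182 bp downstream of the start, of 188 and 114, and Ugt2b38 had no RARβ peak in either diet.

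Among the Ugt2a genes, Ugt2a1, known from the olfactory lining, had RARβ at 234 under RA, 8403 bp upstream, and no RARβ peak under control. At the same place RXRα scored 594 and 625. Ugt2a3, which is expressed in liver, had RXRα at 277 and 283, RARα at 77.9, 309 bp downstream, under control and 177, 1819 bp downstream, under RA, and RARβ under RA only at 67.5. Ugt3 enzymes use other sugars than glucuronic acid. Ugt3a1 was called in all 6 lists, with the best RXRα and RARα peaks at different places under the 2 diets and RXRα within 181 bp of the start at 288 and 138, whereas Ugt3a2 lacked RARβ under control and had it under RA at 143, 59 bp from the start. RARα at Ugt3a2 was at 159 and 133.

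The Gsta enzymes clear products of lipid peroxidation. Gsta4, known for hydroxynonenal, had 1 of the strongest RXRα peaks at a start, 47 bp upstream under control with a score of 1057 and 139 bp downstream under RA with 1109. RARα was called at the same start at 108 and 120, and RARβ only under RA, at 114. Gsta2 had its best peaks 1120 to 1238 bp upstream under control, with RXRα at 746, RARα at 75.8 and RARβ at 51.3, and 7622 to 8436 bp upstream under RA, at 711, 138 and 185. In the region of the control peaks, which all 6 lists shared, the RA scores were 500.5 for RXRα, 65.1 for RARα and 144 for RARβ, so RXRα and RARα were lower there under RA. Gsta1 had RXRα at 406.5 and 389, RARα under RA only at 52.2, and RARβ at 51.0, 861 bp upstream, under control and 86.9, 7225 bp upstream, under RA. The RARα score under RA and the RARβ score under control at Gsta1 were close to 50, the lowest score of the lists. Gsta3, whose sequence is printed, had an RXRα peak 120 and 111 bp upstream of the start under control and RA, at 437 and 408, and RARα and RARβ peaks 8200 to 8641 bp upstream at 107 and 165 and at 51.0 and 173. All 4 Gsta genes had a best RARβ score under RA above that under control or were called under RA only. Over all genes, RARβ scored higher under RA at 81.9% of those called under both diets, and 13.1% were called under RA only.

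The 7 Gstm genes form 1 cluster on chromosome 3. Gstm1, the main Gstm of mouse liver, had a RARα peak at its start with scores of 500.8 and 698, among the 3 highest of the members in both RARα lists, and its RA peak was in the top 0.808% of that list. RXRα at the same start scored only 137 and 201, and its best peak, 219 and 503, lay 7571 and 7567 bp upstream. The strongest RARα and RXRα peaks of this gene thus lay at different places under both diets. Gstm4 had its peaks 255 to 392 bp downstream in all 6 lists, with RXRα at 686 and 774, RARα at 336.5 and 260 and RARβ at 99.4 and 221. Gstm6 had RARα at 365 and 479 at the start, with RXRα at 196 and 391. Gstm7 had the highest RARβ score of all members under RA, 355 at 44 bp from the start, and no RARβ peak under control within 11.978 kb, while RARα there scored 265 and 206 and RXRα 659 and 602. All 3 receptors thus had a peak at the Gstm7 start under RA, and 2 of them under control. Gstm2 and Gstm3 had strong RXRα peaks away from the start, at 404 and 900 for Gstm2, 1703 and 1687 bp downstream, and at 631 and 766 for Gstm3, 5353 and 5378 bp upstream. Gstm2 had RARα under RA only, at 143, and Gstm3 had RARβ under RA only, at 67.8.

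Gstm5 was the single member that went the other way in 2 receptors. RARα (176) and RXRα (81.0) were called at its start under control and not under RA, where the closest peaks were 22.363 and 28.559 kb away. RARβ was called there under RA only, at 81.5, and not under control.

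All 3 Gstp genes and Gstt1, Gstt2 and Gstt3 were called in all 6 lists, as were 38.2% of all genes. The promoters of Gstp1 and Gstp2 were 78.1% identical, with Gstp1 and Gstp2 sharing their best peak in every list. That shared RXRα peak scored 289.7 under control and 290.1 under RA, and the shared RARα peaks 177 and 192. The RARα midpoints lay 2160 and 573 bp downstream of the Gstp1 start, and both RARα peaks covered that start. Gstt1, which acts on small halogenated compounds, had the highest RXRα score of all members under both diets, 1480 at 5565 bp upstream and 1565 at 5611 bp upstream, within the top 0.186% and 0.19% of the lists. The best RARα and RARβ scores at Gstt1, 183 and 282 and 113 and 255, came from different places under the 2 diets. Gstt2 had RXRα at its start, 1129 under control and 683 under RA. Gstt3 had the highest RARα score of all members under control, 554, and 545 under RA, at 8040 and 8154 bp downstream, but that peak lay nearer to the start of Ddt, which is no phase II gene. Gstt4 had RARα under RA only, at 125, and RXRα at 418 and 365.

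Sulfotransferases act on hormones, phenols and bile acids. RXRα was called at 18 of 21 under both diets (61.3% and 61.7% of all genes). RARα was called at 9 and 11 (61.9% and 63.3% of all genes) and RARβ at 8 and 13 (44.1% and 54.7%). Sult1e1, the estrogen sulfotransferase, had RXRα scores of 1155 and 1542, the latter in the top 0.203% of its list, at 9606 and 9542 bp upstream, with RARα at 141 and 233 and RARβ at 100.1 and 208 at the same place. Sult5a1 had RXRα at 1038 and 1321 at 4060 and 4081 bp upstream, with RARβ at 125 and 175. Sult1d1, which sulfonates catecholamines, had a peak within 137 bp of the start in every list, with RXRα at 369 and 221, RARα at 139 and 200.01 and RARβ at 53.6 and 103. Sult1b1, a thyroid hormone sulfotransferase, was called in all 6 lists. It had its best RARα peak 1852 and 1796 bp downstream at 203 and 191, whereas its best RXRα and RARβ peaks lay at different places under the 2 diets. Its RXRα peak 5707 bp downstream scored 275 under control and 132 under RA, and that at the start 242 and 174, while RARβ was called at the start under control (51.5) and 5773 bp downstream under RA (83.3). Sult1c2 had RARα (194) and RARβ (126) under RA only, 459 and 451 bp upstream, where RXRα scored 405 and 166, so the RXRα score there was lower under RA.

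Sult1a1, the phenol sulfotransferase, had the highest RARβ score of all members under control, 130, 5374 bp upstream, but that peak lay nearer to the start of Slx1b. Its RefSeq promoter lies 14025 bp inside the outermost start, and within 1 kb of that inner start RARα scored 186 and 167, RXRα 128 and 234 and RARβ 90.1 under RA, with no RARβ peak under control. The best peaks of Sult6b1 and Sult4a1 likewise lay nearer to the starts of Cebpzos and Pnpla5, neither of them a phase II gene.

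The Sult2a genes encode hydroxysteroid and bile acid sulfotransferases, some of which are known to be expressed more in female than in male mouse liver. RXRα was called at 7 of the 8 under both diets, each time within 1 kb of the start (40.1% and 41.9% of all genes). RARα was called within 10 kb at only 2 and 3 (61.9% and 63.3% of all genes) and RARβ at 2 and 4 (44.1% and 54.7%). Sult2a1 had RXRα at its start at 716 and 753, with RARα under RA only at 84.7 and RARβ at 64.2, 8652 bp upstream, under control and at 113, 80 bp upstream, under RA. Sult2a2, chosen after its values were seen, had RXRα at 658 and 672, RARα at 54.4 and 103, and RARβ under RA only at 142. Among the genes whose sequences are printed, RXRα scored 239 and 215 at Sult2a3, 98 and 109 bp upstream, 172 and 204 at Sult2a5, 164 and 62 bp upstream, and 427 and 414 at Sult2a4, 102 and 125 bp upstream. RARβ at Sult2a4 scored 77.8 under RA, 190 bp upstream. At Sult2a6 the closest peak of any list lay 30.275 kb away. Sult2a8 had its RXRα scores of 626 and 555 at 8233 and 8228 bp downstream, at an inner RefSeq start, with further RXRα peaks of 403 and 554 at the outermost start. Sult3a1, an amine sulfotransferase that is likewise higher in female liver, had RXRα only. Its best RXRα peak scored 168, 6531 bp downstream, under control and 111, 3772 bp upstream, under RA. The control peak lay 171 bp upstream of an inner RefSeq start. RXRα was also called at the outermost start of Sult3a1 under both diets, at 64.4 and 106.5, 98 and 133 bp upstream. Sult2a3 and Sult2a5 shared 73.3% of aligned promoter bases, and the study describes its reads as uniquely mapped. The part of that choice in which near copies had a peak was not tested.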

How the data were processed

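The authors aligned reads to mm10 with Bowtie and called peaks per library with MACS, as the study's methods and the submitters' processing notes (which also name CASAVA 1.4) give it. The 6 deposited lists hold peak coordinates and a score, which was taken as −10 times the log10 of the p-value from the usual scale of MACS and the values, since the study's methods do not define it. Peaks on chromosome Y reached position 90842021 in the lists, beyond the end of that chromosome in NCBIM37, so a genome of that build was not used. The total number of peaks was 245004. Lists were used as deposited.

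Gene spans came from a RefSeq table of GRCm38.p6, and strand from its promoter table (52 members) or GENCODE M1 (8 members, strand only). In the 14743 genes with both, 14704 had the same strand. A peak counted for every gene whose outermost start lay within 10 kb of its midpoint, and peaks were shared when they overlapped by at least 25% of each width. Motifs were searched in the 250 bases upstream of the RefSeq start nearest to the outermost one, and 7 members have a RefSeq start 1 kb or more inside the outermost one. Exons and introns were not analysed here.

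Named members are those known in liver, the 3 highest-scoring in each list, those called under one diet only in at least 2 receptors and those called within 1 kb in all lists. Other members named were chosen after their values were seen. The members and all gene lists were chosen with earlier results of these data known. Peak assignment was tested on simulated data. Python 3.11, pandas 2.3.3, numpy 2.4.6, scipy 1.17.1 and matplotlib 3.10.9 were used. Alternatives were other limits of distance, score, list length, assignment, peak position, overlap and gene start.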

Additional observations from a re-analysis of the deposited data

Results flagged for a closer look

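The change in the number of called members between diets differed between receptors. RA minus control was 6 genes for RARα, 22 for RARβ and -1 for RXRα, out of 60. The receptors were flagged because their counts moved in different directions or by different amounts under the same diet. The difference was not tested, since each receptor and diet had 1 library. Read depth cannot be told apart from the diet here, and the RARβ list was 1.97 times as long under RA as under control.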

How the results depend on the processing

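Of the alternatives, 44 values were labelled as moved and 88 as the same, and the cause was not tested. Pairs are control then RA, and parentheses give the share of all genes. A value labelled as the same could still change. RXRα under control had 56 members within 10 kb (61.3%) and 39 within 1 kb (40.1%). With the 14968 highest-scoring peaks of each list, RXRα had 40 and 38 members (20.6% and 21.4%), where the full lists gave 56 and 55. Members with RARα under RA only were 7 within 10 kb (3.87%) and 10 within 1 kb (2.93%). These RXRα and RARα values were all labelled as the same. Within 1 kb, members with a peak were 24 and 31 for RARα (45.9% and 46.2%), 10 and 26 for RARβ (33.1% and 40.3%) and 33 for RXRα under RA (41.9%). Under control only, RARα had 3 (2.64%), RARβ 2 (2.64%) and RXRα 7 (3.67%), and under RA only RXRα had 1 (5.44%). In all lists 3 were called (24.7%) and in none 15 (46.9%). The share of RXRα peaks under RA that overlapped RXRα under control was 94.4%, and that of RARα with RXRα under control 95.8%.

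With scores of at least 100, RARα had 27 members under control (52.7%) and RARβ 7 and 29 (22.5% and 40.2%). Under RA only RARα had 15 (5.58%), under control only RARβ had 1 (1.87%), and 5 were called in all lists (16.3%). The share of RARα control peaks that overlapped RARα under RA was 97%, of RARβ RA peaks with RARβ under control 10.5%, and of RARβ control peaks with RARα 83.3%.

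With the 14968 highest-scoring peaks of each list, RARα had 24 and 27 members (47.1% and 43.2%) and RARβ 30 under RA (40.7%), so that the RARα share of the members under RA was 45% against 43.2%, where the full list gave 78.3% against 63.3%. RARα had 4 under control only (7.05%), RARβ 7 (9.19%) and RXRα 5 (3.71%), and under RA only RARβ had 11 (5.82%) and RXRα 3 (4.57%). In all lists 8 were called (9.31%) and in none 9 (40.9%). Overlap was 77.8% of RARα control peaks with RARα under RA and 72.4% the other way, 54.8% of RARβ control peaks with RARβ under RA and 43.6% the other way. Overlap with RXRα was 40.7% for RARα and 54.8% for RARβ under control, and 27.6% and 79.5% under RA. Overlap of RARβ with RARα was 32.3% and 33.3%.

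With each peak given to the nearest start only, 1 member had RXRα under RA only (5.24%). With an overlap of 1 bp, 100% of RARβ control peaks overlapped RXRα. Counting any base of a peak, or every annotated start (chosen after seeing the data), moved none of the 14 counts by over 1.5 times. The comparison of scores at 1 place was also added after seeing the data. Low scores near 50 and unknown depth limit every call. No paired analysis was possible because each receptor and diet had 1 library.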

Other observations

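Genes that supply or surround the conjugation reactions were called in most lists. For reference, the shares of all genes under control and RA were 61.9% and 63.3% for RARα, 44.1% and 54.7% for RARβ, and 61.3% and 61.7% for RXRα, and the gene lists are small. Of 12 genes of cofactor supply, RARα and RXRα were called at 12 under both diets and RARβ at 11 under both. Slc35d1, which carries UDP-glucuronic acid into the endoplasmic reticulum, had RXRα scores of 1032 and 1038 and RARβ scores of 109 and 397 under control and RA. Ugdh, which makes that sugar nucleotide, had RARα scores of 517 and 849. Among 8 other glutathione transferases RARα was called at 6 and 7, RARβ at 5 and 6 and RXRα at 7 and 7, and Mgst2 had no peak. Among 11 methyl-, acetyl- and acyltransferases RARβ was called at 8 under control and 11 under RA, with RARα at 10 and 11 and RXRα at 11 under both.

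Of 10 regulators of phase II genes, RXRα was called at 10 under both diets, RARα at 9 under both and RARβ at 8 and 9. Nr1i2, which encodes PXR, had RARβ under RA only, at 93.0, and RXRα at 876 and 961. Nfe2l2, which encodes Nrf2, had RARβ at 129 and 451. Among the 4 efflux pumps that export conjugates, RARβ was called at 0 under control and 3 under RA (44.1% and 54.7% of all genes), with RARα and RXRα at 3 under both, and Abcg2 had no peak. RARβ was thus called under RA only, as at 13.1% of all genes, at Abcc2, Abcc3 and Abcc4, with scores of 117, 74.8 and 136.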
